A study of Mus musculus with 2 samples.

Results

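The cells described here are the Mpo-expressing promyelocytes with little Cpa3 in the vehicle library of a mouse model of PLZF/RARA leukemia. A kept vehicle cell was counted as a member when its Mpo was at 200 CPM or more and its Cpa3 below 200 CPM, where CPM is the number of UMIs of a gene in every 1000000 UMIs of a cell or of a summed set of cells. UMIs are the molecular barcodes by which copies of the same captured RNA are counted once. Of 5146 kept vehicle cells, 621 were members, a share of 12.1% (exact binomial 95% interval 11.2 to 13%, counting error only). Cells were thus chosen by their measured Mpo and Cpa3 levels, so the levels of Mpo and Cpa3 in these cells are a description and not a finding.

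The series compared late promyelocytes transformed by the PLZF/RARA fusion, taken from leukemic mouse bone marrow after 7 days of treatment. Vehicle mice were injected intraperitoneally with corn oil and 10% DMSO, and treated mice with 0.8 to 1 mg of retinoic acid by the same route. Cells of both groups were sorted as positive for Cd45.2, C-Kit, Gr1 and FcγR and negative for Cd34, and loaded for 10x Genomics 3′ sequencing at a target of 6000 cells per sample. The labels give 3 to 5 mice for a cohort, but not how many mice gave cells to a library, the promoter that drives the fusion, or the animals' strain and age. Each treatment had 1 library, so cells of several mice may be mixed and no difference below has a replicate check or a p-value. The question named in the series title is the part that EZH2 plays in resistance to retinoic acid.

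Promyelocytes are the stage of granulocyte development at which primary, or azurophilic, granules are filled. Mpo encodes myeloperoxidase, the heme enzyme of those granules, and it is packed together with the serine proteases neutrophil elastase (Elane), proteinase 3 (Prtn3) and cathepsin G (Ctsg). Cpa3 encodes carboxypeptidase A3, a protease of mast cell and basophil granules. In acute promyelocytic leukemia a fusion of the retinoic acid receptor alpha holds cells near this stage, and the PLZF/RARA form is known for its poor response to retinoic acid.

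The vehicle matrix held 5786 barcodes and 99679545 UMIs. A barcode was kept when it had 5000 UMIs or more, 500 genes or more and 0.1 to 10% of its UMIs from mitochondrial genes. The members were deeper than the rest, with medians of 21092 UMIs and 4364 genes against 16756 UMIs and 3733 genes in the 4525 other kept vehicle cells. Median mitochondrial shares were 2.02% and 2.01%. Members made up 5.73% of the cells with up to 10000 UMIs and 21.9% of those with over 30000, so the class is weighted to deep cells. The vehicle and retinoic acid matrices shared 11 barcodes, 1 of them a member.

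The same cut-offs split the remaining vehicle cells into 3 classes. There were 2369 cells with Cpa3 and little Mpo, 300 with both genes and 1856 with little of either. Mpo in the members ran from 203 to 8220 CPM, with a median of 1029, or 21 UMIs in a cell. The members held 22381 of the 30381 Mpo UMIs of the kept vehicle cells (73.7%). The tenth of members with most Mpo UMIs, 62 cells, held 36.0% of the members' total, so Mpo was spread unevenly among them. No Cpa3 UMI was found in 339 members.

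Cells lay on both sides of the cut-offs without a gap. There were 33 members with 200 to 250 CPM of Mpo, and 36 cells just outside with 150 to 200. On the Cpa3 side, 42 members had 150 to 200 CPM and 29 cells just outside had 200 to 250. Only 37 members (5.96%) were called on fewer than 5 Mpo UMIs. The class is therefore a range cut from a continuous measure.

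**Figure D1:**
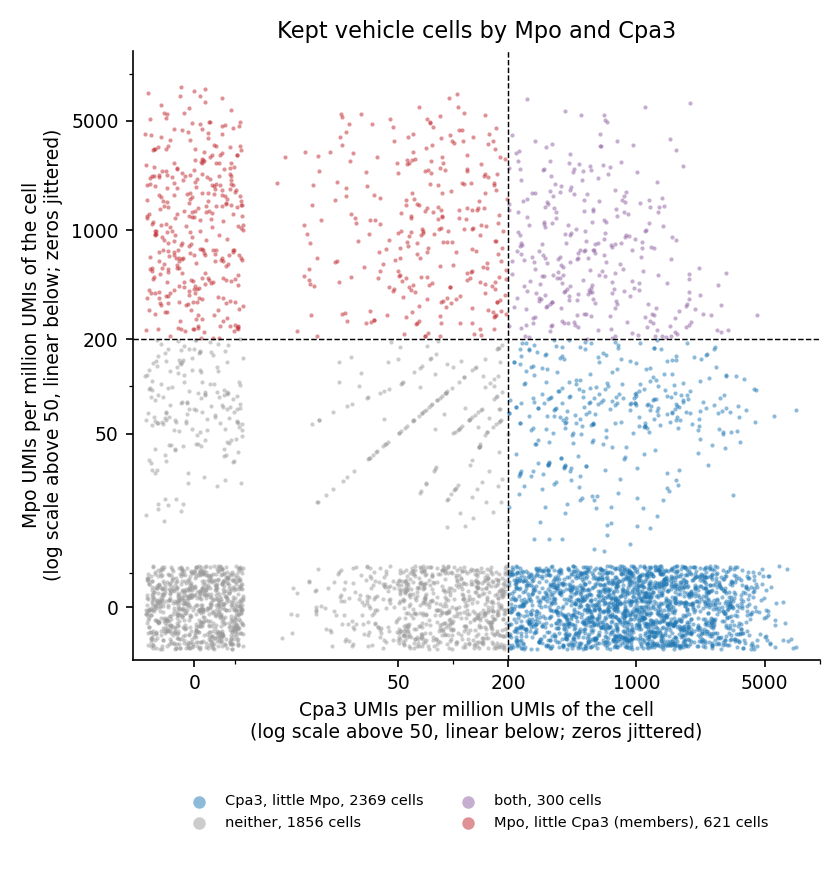
Mpo against Cpa3 in each of the 5146 kept vehicle cells, as CPM of the cell (log scale above 50, linear below, zeros jittered); dashed lines mark 200 CPM and colours mark the 4 classes. The 621 members fill the upper left, from 203 to 8220 CPM of Mpo, and no empty band separates them from the cells below.

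Free RNA in droplets can place a UMI of an abundant gene in a cell that does not make it. With every cell thinned to 5000 UMIs, Mpo was detected in 95% of members and 11.7% of the other cells, a contrast that the rule itself set. The reference for background was 141 cells rich in neutrophil maturation genes that were not members. Before thinning, the median depths of the members and of the reference were 21092 and 12462 UMIs. Elane, which the rule did not use, was detected in 41.5% of thinned members (exact binomial interval 37.6 to 45.5%), against 12.4% of the other cells and 8.51% of the reference. The unthinned shares for Elane were 71.7% of members and 27.6% of other cells. When the kept vehicle cells were clustered, the cluster with most Camp had Elane at 58.4 CPM. The cluster with most Epx had it at 7.44 CPM. The maturing reference may thus hold Elane of its own, and its share may not measure free RNA alone.

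The label gives Mpo, Cd34 and Fgf3 as markers of these cells. Mpo is set by the rule, so only Cd34 and Fgf3 could be compared with the label. Neither was highest in the members. Cd34, a surface sialomucin of hematopoietic progenitors, was at 61.1 CPM in members and 53.1 CPM in the other cells. The log2 ratio was 0.20 (exact binomial 95% interval 0.09 to 0.31, counting error only). Within the vehicle library Cd34 was at 68.5 CPM in the cells with both genes, 57.1 CPM in those with Cpa3 alone and 45.5 CPM in those with neither, so the members were not the highest class. With cells thinned to 5000 UMIs, a Cd34 UMI was found in 25.8% of members, 21.3% of the other cells and 2.13% of the maturing reference cells (62.2%, 51.3% and 14.2% before thinning). The sort was on the protein, which these counts do not measure. Fgf3, which encodes a secreted fibroblast growth factor, went against the label. It was at 30.6 CPM in members, the lowest of the classes, against 42.5 CPM in the cells with neither gene, 66.0 CPM in those with both and 76.4 CPM in those with Cpa3 alone. The log2 ratio of Fgf3 against all other cells was -1.0 (-1.15 to -0.86), and it was between -1.09 and -0.97 in G1, S and G2/M cells taken separately.

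The genes that the results turn on sit at 3 places in the mouse genome (GRCm38). Mpo lies at chr11:87793581-87804413 on the plus strand, Elane at chr10:79886247-79888215 and Prtn3 at chr10:79874476-79883174, also on the plus strand and next to each other, and Cpa3 at chr3:20215620-20242181 on the minus strand. The sequences before their starts are shown because Elane and Prtn3 were high where Mpo was high, and Cpa3 is the gene that the rule keeps low in the members. Windows of 250 bases before the RefSeq start (GRCm38.p6) were searched on both strands for GAGGAA (the core of PU.1 sites), TTGCNNAA (C/EBP), TGTGGT (RUNX) and AGATAA (the motif of GATA factors), and matches are in capitals. The windows of Ms4a3 and Hdc were searched too, held none of the 4 motifs and are not shown. The part of a window that GENCODE M21 counts as exon of the gene is left off, and all matches lie in what remains. The RefSeq start of Prtn3 lies inside the gene span given above, and so does its window.
Mpo, chr11:87793534-87793580, plus strand: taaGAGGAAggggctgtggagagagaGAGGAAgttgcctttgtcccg
Elane, chr10:79886062-79886246, plus strand: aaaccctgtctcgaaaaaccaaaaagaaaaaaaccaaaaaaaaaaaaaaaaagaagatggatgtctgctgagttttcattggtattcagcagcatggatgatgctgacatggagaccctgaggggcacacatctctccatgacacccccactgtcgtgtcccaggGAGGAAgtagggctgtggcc
Prtn3, chr10:79879417-79879613, plus strand: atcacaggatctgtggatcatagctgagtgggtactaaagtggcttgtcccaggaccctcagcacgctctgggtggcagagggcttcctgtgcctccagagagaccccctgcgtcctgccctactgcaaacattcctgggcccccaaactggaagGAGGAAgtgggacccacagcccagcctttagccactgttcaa
Cpa3, chr3:20242182-20242431, minus strand: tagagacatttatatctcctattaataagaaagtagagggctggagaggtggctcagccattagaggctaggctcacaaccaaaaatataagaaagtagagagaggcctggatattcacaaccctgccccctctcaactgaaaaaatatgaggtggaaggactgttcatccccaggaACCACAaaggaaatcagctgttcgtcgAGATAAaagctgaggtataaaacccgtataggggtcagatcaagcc

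The Mpo window held GAGGAA at 2 positions and those of Elane and Prtn3 at 1 each, all on the strand of the gene. The Cpa3 window held 1 match to TGTGGT, read on the opposite strand as ACCACA, and 1 to AGATAA. These letters are common. GAGGAA was found in 23.3% of 32851 RefSeq windows of this length, TGTGGT in 14.0%, AGATAA in 9.99% and TTGCNNAA in 9.56%. A match describes the sequence and is not evidence of binding.

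Summed over cells, 5416 genes reached 20 CPM in members or in the other vehicle cells. Of these, 43 (0.794%) were at least 1.5-fold higher in members and 90 (1.66%) at least 1.5-fold lower. At 2-fold the numbers were 5 higher (0.0923%) and 31 lower (0.572%). The median log2 ratio over all 5416 genes was 0.08. Differences between the members and the other cells were thus small for most genes. Beside Mpo and Cpa3, which the rule used, the highest log2 ratio was that of Elane at 1.92, and the lowest were those of Prg2 at -4.76, Akr1c18 at -3.95 and Epx at -3.51. Akr1c18, a hydroxysteroid dehydrogenase gene with close copies, was at 3.11 CPM in members and 48.5 CPM in the others, and was picked out after its value was seen.

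The granule proteases Elane and Prtn3 were at least 1.5-fold higher in the members, and Ctsg and Prss57 were not. Elane, neutrophil elastase, was at 170 CPM in members (exact Poisson 95% interval 163 to 177), 80.5 CPM in cells with neither gene, 63.4 CPM in cells with both and 12.3 CPM in cells with Cpa3 alone. The members were highest and their interval lay clear of every other class. Against all other vehicle cells the log2 ratio was 1.92 (1.84 to 1.99), a ratio of 3.77. Against the cells with neither gene, which like the members have little Cpa3, it was 1.08 (1.00 to 1.16).

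Prtn3, proteinase 3, was at 386 CPM in members, 307 CPM in the cells with neither gene, 202 CPM in those with both and 155 CPM in those with Cpa3 alone. Its log2 ratio was 0.79 (0.75 to 0.84) against all others and 0.33 (0.28 to 0.38) against the cells with neither gene. Ms4a3, a membrane protein of granulocyte progenitors, was at 1286 CPM in members and 783 CPM in the others, a log2 ratio of 0.72. In all 3 genes the members were highest, followed by the cells with neither gene, those with both and those with Cpa3 alone.

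The list of primary granule genes held 8 besides Mpo, of which 7 reached 20 CPM. Elane, Prtn3 and Ms4a3 were at least 1.5-fold higher, where 0.794% of all genes were, and none was lower. The median log2 ratio of the 7 was 0.31, beside 0.08 over all genes tested. Ctsg, cathepsin G, was at 7776 CPM in members and 6253 CPM in the others, a log2 ratio of 0.31. The serine protease Prss57 differed little, at 386 and 375 CPM, as did the granule proteoglycan Srgn at 2178 and 2166 CPM. Serpinb1a, an inhibitor of the granule proteases, was at 719 CPM in members and 794 CPM in the others, so the higher members of the list were a subset. Ctsc, the peptidase that activates these proteases, had no UMI in either set.

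Heme is the cofactor of myeloperoxidase. None of the 7 heme synthesis genes that could be compared reached 1.5-fold. All 7 lay above 0. Their median log2 ratio was 0.190, just under the upper quartile of all genes tested (quartiles -0.049 and 0.194), and 0.045 against the cells with neither gene. Alas1, which catalyses the first and rate-limiting step, was at 202 CPM in members and 190 CPM in the others. Of 19 genes of protein folding in the endoplasmic reticulum none was called, with a median of 0.02.

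Trem3 and Dmkn stood beside Elane among the highest ratios. Trem3, a receptor of the TREM family on myeloid cells, was at 96.9 CPM in members, 66.8 CPM in cells with neither gene, 55.9 CPM in cells with both and 27.1 CPM in cells with Cpa3 alone. Its log2 ratio against all others was 1.07 (0.98 to 1.16). Dmkn, dermokine, was at 188 CPM in members and 108 CPM in the others, a log2 ratio of 0.80 (0.73 to 0.86), and at 129 CPM in cells with neither gene. Both were higher in members than in each of the other classes.

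Only 6 of 5408 genes (0.111%) were at least 1.5-fold higher in members than in cells with neither gene. They were Mpo, Elane, Mrgpra2b with a log2 ratio of 0.98, 4930550L24Rik with 0.65, Igfbp4 with 0.62 and Fbp1 with 0.60. The last 4 were picked out after their values were seen. Mrgpra2b, a G protein-coupled receptor gene of the Mrgpr family, was at 22.6 CPM in members and 11.4 CPM in the cells with neither gene. It reached 20 CPM only through the members, and close copies of it exist, so its counts are uncertain. Fbp1, fructose bisphosphatase, was at 47.1 and 31.1 CPM. Igfbp4, which encodes a binding protein for insulin-like growth factors, was at 84.5 and 55.0 CPM, but at 113 CPM in cells with both genes and 85.9 CPM in those with Cpa3 alone. All 43 genes called against the other cells together lay above 0 in each of the 3 class comparisons, but only 5 of them reached 1.5-fold against the cells with neither gene. Against the cells with both genes 17 did, where 0.609% of all genes compared were higher, and against the cells with Cpa3 alone 42 did, where 5.44% were. At least 1.5-fold lower than in the cells with neither gene were 37 genes (0.684%), and 19 (0.352%) once cells with many maturation transcripts were left out.

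**Figure D2:**
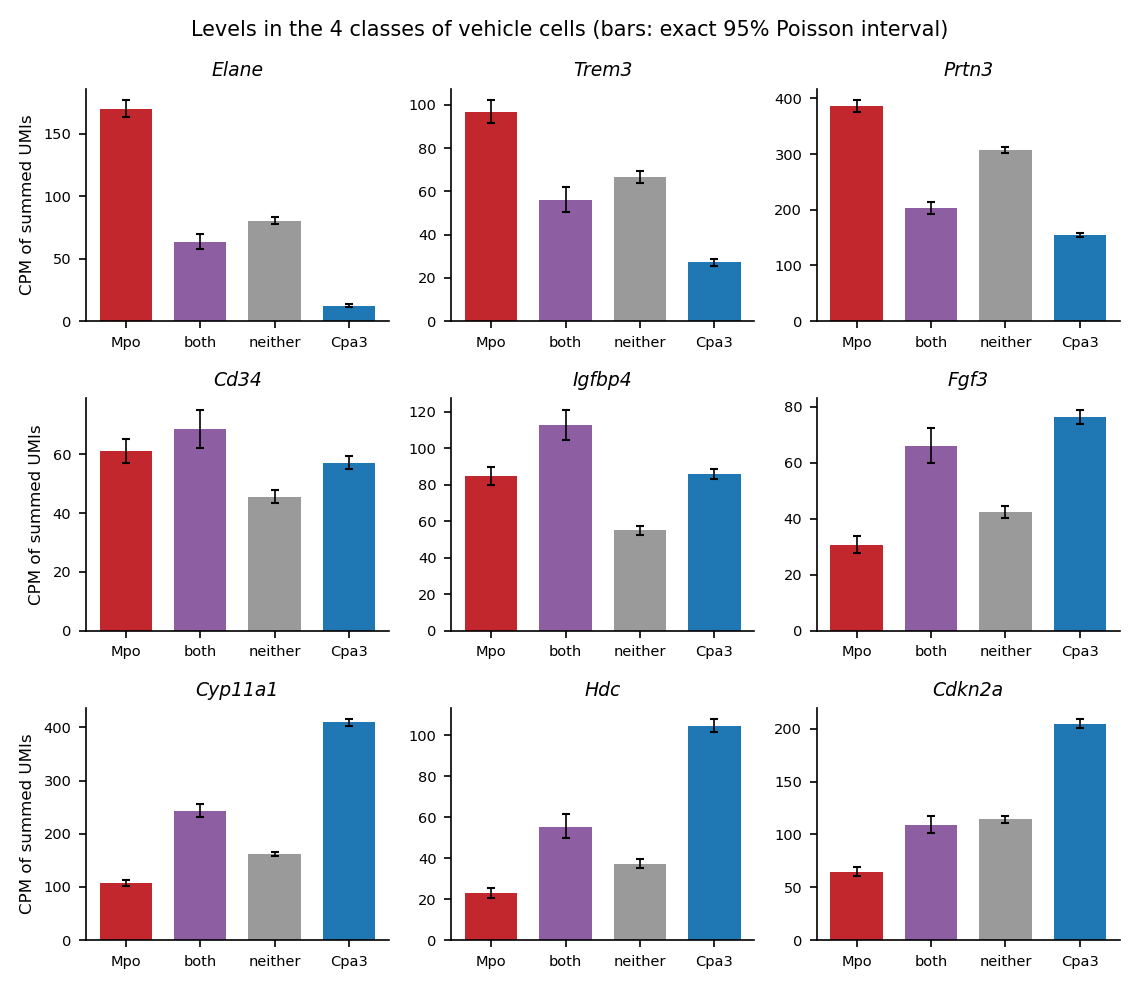
Level of 9 genes in the 4 classes of vehicle cells, as CPM of summed UMIs with exact 95% Poisson intervals; Mpo marks the members and Cpa3 the cells with Cpa3 and little Mpo. Elane, Trem3 and Prtn3 were highest in the members, Cd34 and Igfbp4 were highest in the cells with both genes, and Fgf3, Cyp11a1, Hdc and Cdkn2a were lowest in the members.

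The members differed in cell cycle phase. With cells thinned to 5000 UMIs and scored on S and G2/M genes, 29.8% of members were called G1 (exact binomial interval 26.2 to 33.6%), 17.2% S and 53.0% G2/M. The G1 share was 41.9% in cells with neither gene, 50% in cells with both and 69.2% in cells with Cpa3 alone. The difference from all other cells together was -26.9 points (Newcombe 95% interval -30.7 to -23.0), and that from the cells with neither gene was -12.1 points (-16.2 to -7.75), which did not hold within most ranges of depth. Seen the other way, members made up 6.72% of G1 cells, 16.5% of S cells and 18.9% of G2/M cells of the vehicle library.

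Cells called S and G2/M were deeper than G1 cells, so the shares were also read within ranges of depth. In cells over 10000 and up to 15000 UMIs, 70.8% of members and 83.2% of the others were in G1. Over 15000 and up to 20000 UMIs it was 42.8% and 61.3%, and over 20000 and up to 30000 it was 12.7% and 23.5%. The members were lower in all 5 ranges, though above 30000 UMIs the intervals overlapped, at 7.21% and 12.1%. Against the cells with neither gene the lower G1 share was seen clear of the intervals only up to 10000 UMIs, at 51.5% of 33 members (33.5 to 69.2%) and 81.7% (75.8 to 86.6%). In the next ranges those cells were at 73.1%, 41.2% and 14.3%, each inside the members' interval. Above 30000 UMIs they were at 2.47%, below the members, with intervals that overlapped. The -12.1 points over all depths are therefore not a gap found at each depth.

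**Figure D3:**
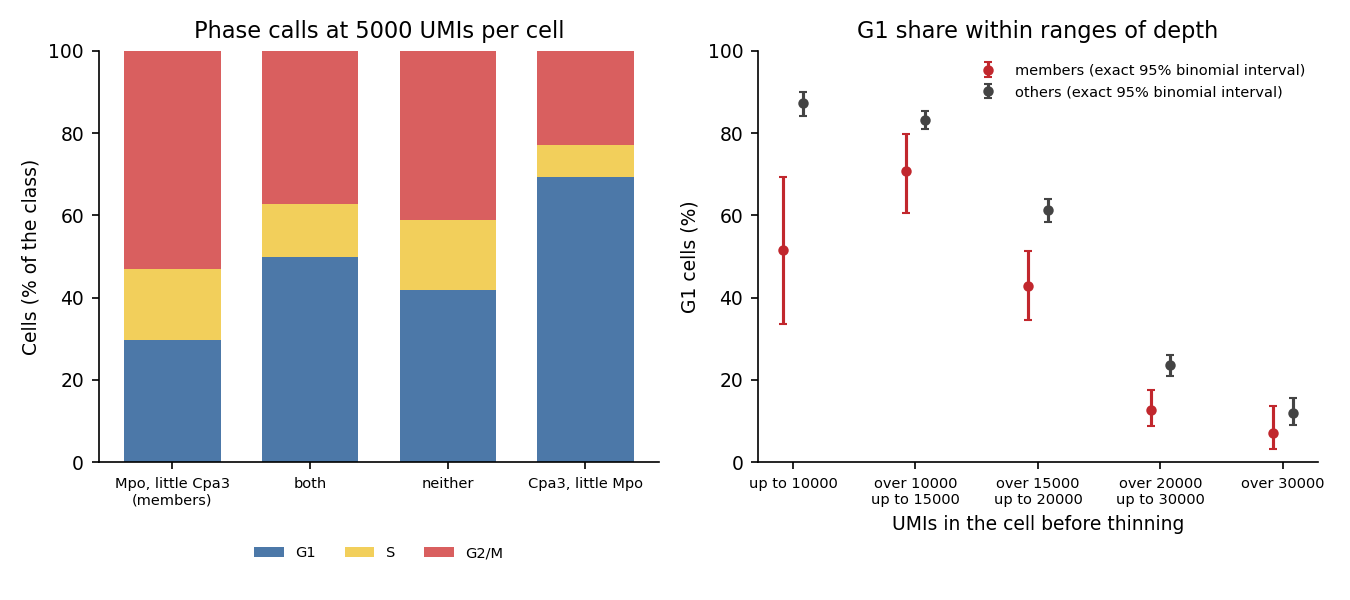
Left, share of cells called G1, S and G2/M in each class after thinning to 5000 UMIs; right, G1 share of members and of the other vehicle cells within 5 ranges of depth, with exact 95% binomial intervals. The members had the lowest G1 share of the classes, 29.8%, and lay below the other cells in each range of depth.

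Some genes of DNA replication and mitosis were higher in the members than in all other cells. Of 32 S phase genes 3 were at least 1.5-fold higher, and of 44 G2/M genes 8 were, where 0.794% of all genes were. The median log2 ratios of the lists were 0.40 and 0.47, beside 0.08 over all genes tested. Against the cells with neither gene no gene of either list was called, and the medians were 0.12 and 0.15. The higher S genes included the primase subunit Prim1 and the helicase Hells. The 8 G2/M genes were Cdc20, which activates the anaphase-promoting complex, Nuf2, Cenpf, Cenpa, Cdca3, Birc5, Ube2c and Cdk1. Phase calls were made from these same lists, so the lists and the phases are 1 observation and not 2.

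Among genes outside those lists, Plk1, the kinase that drives entry into mitosis, was at 71.4 CPM in members and 43.5 CPM in the others, a log2 ratio of 0.72 (0.61 to 0.82). Ccnb1, cyclin B1, was at 114 and 73.1 CPM. Rcc1, the exchange factor of the GTPase Ran, was at 50.9 and 33.5 CPM, and Knstrn, a spindle and kinetochore protein, at 56.6 and 37.3 CPM, with log2 ratios of 0.29 and 0.14 at matched phases. In G2/M cells, which hold most of its counts, Plk1 was at 109 CPM in members and 96.4 CPM in others, a log2 ratio of 0.18 (0.08 to 0.29). It was 1.35 in G1 on 13 UMIs in members (0.32 to 2.18), and -0.13 in S (-0.83 to 0.47).

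The other vehicle cells were therefore weighted to the members' shares of G1, S and G2/M. The genes at least 1.5-fold higher then numbered 9 of 5389 (0.167%) in place of 43, all of them among the 43. The genes lower numbered 42 (0.779%) in place of 90, of which 41 were shared. The 9 were Mpo, Elane, Mrgpra2b, Fbp1, Trem3, Inka1, Prtn3, Dmkn and 4930550L24Rik. Mpo is set by the rule. Mrgpra2b, Inka1 and 4930550L24Rik were at 10.1, 12.5 and 15.1 CPM in the weighted others, so they reached 20 CPM only through the members. The log2 ratio of Elane was 1.66 after weighting, of Trem3 0.94, of Prtn3 0.86 and of Dmkn 0.73. That of Ms4a3 was 0.49, short of 1.5-fold, and those of Plk1 and Cenpa were 0.17 and 0.11. Ctsg was at 0.21. Elane and Prtn3 were thus still past 1.5-fold at matched phases. No gene of the S or G2/M list was, but phases were called from those lists, so the weighting itself largely sets this.

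Within single phases Elane was higher in members each time. In G1 it was at 166 CPM in members and 24.2 CPM in the others, in S at 134 and 72.6 CPM, and in G2/M at 180 and 59.1 CPM. The level in members changed little between phases, and the level in the other cells varied more. Prtn3 had log2 ratios of 0.81 in G1, 0.64 in S and 0.94 in G2/M.

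Among inhibitors of the cycle, Cdkn2a was at 64.9 CPM in members, 114 CPM in cells with neither gene, 109 CPM in cells with both and 205 CPM in cells with Cpa3 alone. Cdkn2a gives rise to p16INK4a and p19ARF, which 3′ counts do not tell apart. The log2 ratio was -1.29 (-1.39 to -1.20) against all others, -1.39 within G1 and -0.41 within G2/M. Cdkn1a, which encodes the inhibitor p21, was at 88.0 CPM in members and 147 CPM in the others, a log2 ratio of -0.74, and -0.49 at matched phases. Of 7 regulators compared these 2 were called lower and none higher, where 1.66% and 0.794% of all genes were. Cdk6 was at 475 and 506 CPM and Cdk4 at 351 and 285 CPM.

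**Figure D4:**
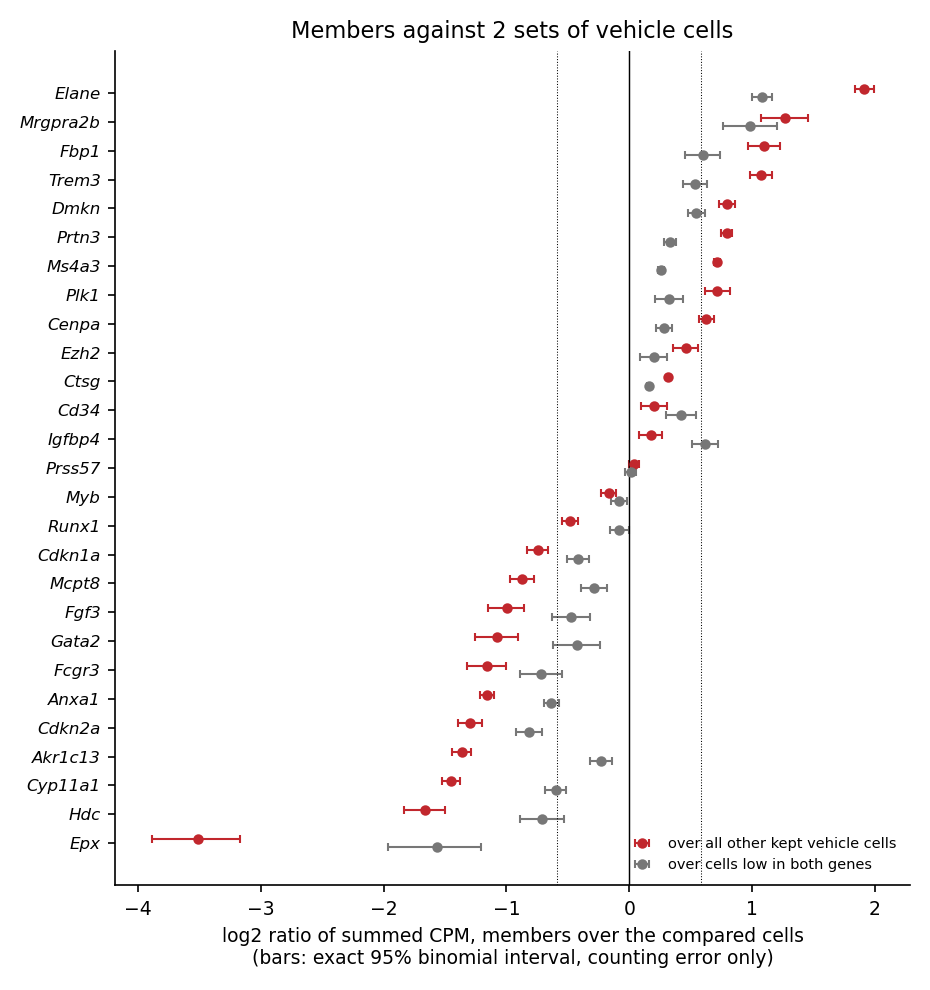
Log2 ratio of summed CPM in the members over all other vehicle cells (red) and over the cells with neither gene (grey) for 27 genes, with exact 95% binomial intervals for counting error; dotted lines mark 1.5-fold. Elane lies beyond 1.5-fold against both, and most ratios are nearer 0 against the cells with neither gene.

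Most mast cell and basophil genes that could be compared were lower in the members, beyond Cpa3 itself. Of 20 genes on this list other than Cpa3, 6 reached 20 CPM. Of these 6, 4 were at least 1.5-fold lower, where 1.66% of all genes were, and 1 had a ratio above 0. Hdc, the enzyme that makes histamine, was at 22.8 CPM in members, 37.3 CPM in cells with neither gene, 55.4 CPM in cells with both and 105 CPM in cells with Cpa3 alone. Cyp11a1, the steroid side-chain cleavage enzyme that basophils and mast cells also make, was at 107, 162, 244 and 409 CPM in the same order. For both genes the members were lowest.

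Gata2, a transcription factor of progenitors, mast cells and basophils, was at 21.7 CPM in members and 45.8 CPM in the others, a log2 ratio of -1.08 (-1.25 to -0.91). Mcpt8, a basophil protease, was at 69.5 and 127 CPM. The median log2 ratio of the 6 genes was -0.98. Their whole list without Cpa3 summed to 318 CPM in members, 436 CPM in cells with neither gene, 547 CPM in cells with both and 884 CPM in cells with Cpa3 alone. Defining genes of mature mast cells and basophils, among them Fcer1a, Tpsb2, Tpsab1, Mcpt4 and Prss34, had no UMI in the members, which allows up to 0.217 CPM. The cells with neither gene have as little Cpa3 as the members, at 46.6 and 43.2 CPM. Against them Hdc stood at -0.71 (-0.89 to -0.53), Cyp11a1 at -0.60 (-0.68 to -0.52), Gata2 at -0.42 (-0.62 to -0.24) and Mcpt8 at -0.29 (-0.40 to -0.18).

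Eosinophil granule genes were nearly absent, and they were low in the cells with neither gene too. The list of 10 eosinophil genes summed to 18.0 CPM in members and 36.0 CPM in cells with neither gene. It summed to 104 CPM in cells with both and 180 CPM in cells with Cpa3 alone. Against the cells with neither gene, no gene of the list reached 20 CPM in either set. Epx, eosinophil peroxidase, was at 4.85 CPM in members and 55.6 CPM in the others, and Prg2, eosinophil major basic protein, at 1.16 and 32.4 CPM. These genes sat in few cells. Of the others' Prg2 counts, 94.2% came from the 1% of cells with most, and of their Epx counts 61.1% did. When the kept cells were clustered without regard to class, 1 cluster of 370 cells had Epx at 596 CPM and held no member, which allows a share of up to 0.811%. Of the cells in that cluster, 82.7% had Cpa3 and little Mpo, so the rule itself keeps them out of the members.

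Ccl6, a chemokine of myeloid cells, was at 25.6 CPM in members and 128 CPM in the others, a log2 ratio of -2.31, and 53.1% of the others' counts came from the 1% of cells with most. Its direction was not the same in each phase. The log2 ratio was -4.43 (-4.98 to -3.98) in G1, at 11.6 and 255 CPM, and 0.49 (0.29 to 0.68) in G2/M, at 33.8 and 24.2 CPM.

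Other genes among the lowest ratios included Ctsh, cathepsin H, at 10.7 CPM in members and 54.1 CPM in the others. Ldhc, a lactate dehydrogenase subunit best known from testis, was at 55.7 and 157 CPM. Akr1c13, an aldo-keto reductase, was at 103 and 264 CPM. Itgb7, the beta 7 integrin, was at 46.3 and 105 CPM, and Anxa1, annexin A1, at 213 and 476 CPM. Cyp4f18 and Ifitm6 had log2 ratios of -1.56 and -1.55. Akr1c13 was nearly level with the cells that have neither gene, with a log2 ratio of -0.23, whereas Ctsh was at -1.34, Cyp4f18 at -1.07, Ifitm6 at -1.06 and Anxa1 at -0.63. The cells with neither gene held 125 of the 150 vehicle cells with many maturation transcripts, and these ratios include them. Close copies of Akr1c13 exist, so its counts are uncertain.

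Genes of later neutrophil maturation were lower in the summed counts, but for Camp, Ngp, S100a8 and S100a9 this rested on few cells. Camp, the antimicrobial peptide of secondary granules, was at 27.3 CPM in members and 185 CPM in the others, and Ngp, neutrophilic granule protein, at 416 and 722 CPM. Of 10 maturation genes compared, 5 were at least 1.5-fold lower (Camp, Ngp, Lcn2, Ly6g and Anxa1), where 1.66% of all genes were. The median log2 ratio of the 10 was -0.46. In the vehicle library 150 cells gave at least 1% of their UMIs to the maturation list, 125 of them with neither Mpo nor Cpa3 and 9 of them members. The top 1% of the other cells carried 89.2% of their Camp counts. Without the 150 cells Camp turned to 11.3 CPM in members and 4.68 CPM in the others, a log2 ratio of 1.28, and Ngp to 0.094. Both of those Camp levels are under the 20 CPM needed for a comparison. S100a8 and S100a9, the subunits of calprotectin, went from -0.28 and -0.17 to 1.41 and 0.66. The direction of these 4 genes therefore depends on whether a small set of maturing cells is counted. That set was chosen by the maturation list itself. Leaving it out takes away counts of the list's genes, mostly outside the members. Anxa1 nearly kept its log2 ratio, at -1.16 with those cells and -1.14 without them. Removing those cells left Elane at 1.92 and gave 44 genes higher (0.813%) and 86 lower (1.59%).

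Transcription factors of the granulocyte line differed little. Of 15 compared, none was at least 1.5-fold higher and 1, Gata2, was lower, where 0.794% and 1.66% of all genes were. Cebpe, which drives the step from promyelocyte to later granulocytes, was at 352 CPM in members and 407 CPM in the others. Cebpa was at 54.3 and 46.0 CPM, Spi1, which encodes PU.1, at 164 and 173 CPM, and Gfi1, a repressor needed for neutrophil development, at 87.6 and 74.1 CPM. Runx1 was at 143 and 200 CPM, a log2 ratio of -0.48, but at 151 CPM in cells with neither gene. Myb was at 189 and 212 CPM.

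Of 22 stem and progenitor genes 6 could be compared and none was called, with a median of 0.02. Meis1, Hoxa9 and Mecom had no UMI in the members. Flt3, the receptor of early progenitors, was at 3.40 CPM in members and 2.81 CPM in the others. Of 18 monocyte and dendritic cell genes 3 reached 20 CPM. Lgals3 was at 236 CPM in members and 413 CPM in the others, Adgre1 at 49.7 and 77.6 CPM, and Bst2 at 244 and 267 CPM. Csf1r, the receptor that defines the monocyte line, had no UMI in members and 10 in the others. Among erythroid and megakaryocyte genes only Itga2b, the alpha IIb integrin, could be compared, at 7.68 and 31.9 CPM. Of 18 lymphoid genes only Nkg7 could, at 1307 and 1279 CPM.

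Among the antigens used for the sort, Fcgr3, an Fc gamma receptor, was at 25.6 CPM in members and 57.2 CPM in the others, a log2 ratio of -1.16 (-1.32 to -1.01). Fcgr2b was at 97.8 and 127 CPM. Ly6g, 1 of the genes behind the Gr1 antigen, was at 7.24 and 34.3 CPM, and 70.4% of the others' Ly6g counts came from the top 1% of cells. The related genes Ly6c1 and Ly6c2, close copies of each other, had log2 ratios of -0.38 and -0.34. Kit was at 15.5 and 19.8 CPM and Ptprc, which encodes Cd45, at 86.8 and 102 CPM.

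Ezh2, the catalytic subunit of Polycomb repressive complex 2, was at 74.6 CPM in members (70.1 to 79.3), 65.0 CPM in cells with neither gene, 56.2 CPM in cells with both and 44.9 CPM in cells with Cpa3 alone. Against all others the log2 ratio was 0.46 (0.36 to 0.56), below 1.5-fold. It shrank to 0.14 at matched phases. It was 0.81 (0.52 to 1.08) in G1, 0.16 (-0.07 to 0.37) in S and 0.07 (-0.05 to 0.19) in G2/M. All 8 genes of the complex and its partners that could be compared lay above 0, with a median of 0.29, none reached 1.5-fold, and the median at matched phases was 0.08. Suz12 was at 87.0 and 72.0 CPM and the histone-binding subunits Rbbp4 at 169 and 137 CPM and Rbbp7 at 156 and 119 CPM.

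Zbtb16, the mouse gene for PLZF, was at 8.76 CPM in members and 10.1 CPM in the others, with an interval that includes 0 (-0.49 to 0.07). Rara was at 6.45 and 11.6 CPM, a log2 ratio of -0.85 (-1.18 to -0.54), and -0.54 at matched phases. Its interval lay below 0 in G1 cells (-1.72 to -0.48) and included 0 in S cells (-1.01 to 0.64) and G2/M cells (-0.86 to 0.06). The levels of both genes are under the 20 CPM needed for a comparison. The labels do not say whether transcripts of the fusion were counted under either gene, so these values say nothing certain of the fusion.

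Of 3 RNAs kept in the nucleus that could be compared, 2 were at least 1.5-fold lower in the members, where 1.66% of all genes were, and none was against the cells with neither gene. Malat1 was at 1547 CPM in members and 2369 CPM in the others, and Neat1 at 61.0 and 110 CPM, while Kcnq1ot1 was at 158 and 153 CPM. Malat1 was at 2048 CPM in cells with neither gene. At matched phases the log2 ratios of Malat1 and Neat1 were -0.38 and -0.41, short of 1.5-fold. Ribosomal protein genes had a median of -0.07 with none of 88 called, and the 11 genes of the mitochondrial genome a median near 0.

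Within the members, cells were ordered by Mpo and split into 3 sets of 207. Median Mpo was 374, 1029 and 2917 CPM in the 3 sets. Depth and phase were alike, with medians of 21050, 20518 and 21550 UMIs and G1 shares of 28.5%, 31.9% and 29.0%. Elane was at 120 CPM in the cells with least Mpo, 158 CPM in the middle set and 232 CPM in the cells with most, a log2 ratio of 0.95 (0.80 to 1.10) between the outer sets. Prtn3 was at 321, 392 and 445 CPM, and Ms4a3 at 1167, 1290 and 1400 CPM. These protease and membrane genes were higher with each set, by less than Mpo.

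Other genes ran the other way. S100a8 was at 152, 99.5 and 72.8 CPM, and Ngp at 606, 325 and 317 CPM. Of the 9 members with many maturation transcripts, 5 were in the set with least Mpo and 2 in each of the other sets. Without them S100a8 was at 111, 92.5 and 71.8 CPM and Ngp at 325, 308 and 238 CPM, so the log2 ratios between the outer sets went from -1.06 to -0.62 and from -0.93 to -0.45. Camp, at 43.5, 13 and 25.1 CPM with them, was at 9.71, 11.5 and 12.8 CPM without them. Hdc was at 30.3, 20.1 and 18.0 CPM, Akr1c13 at 129, 103 and 77.1 CPM, and Fgf3 at 35.3, 31.8 and 24.9 CPM. Cdkn2a, Gata2 and Ezh2 had intervals between the outer sets that include 0, from -0.30 to 0.16 for Cdkn2a, -0.53 to 0.27 for Gata2 and -0.29 to 0.15 for Ezh2. Cd34 was at 52.2, 66.4 and 64.6 CPM.

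**Figure D5:**
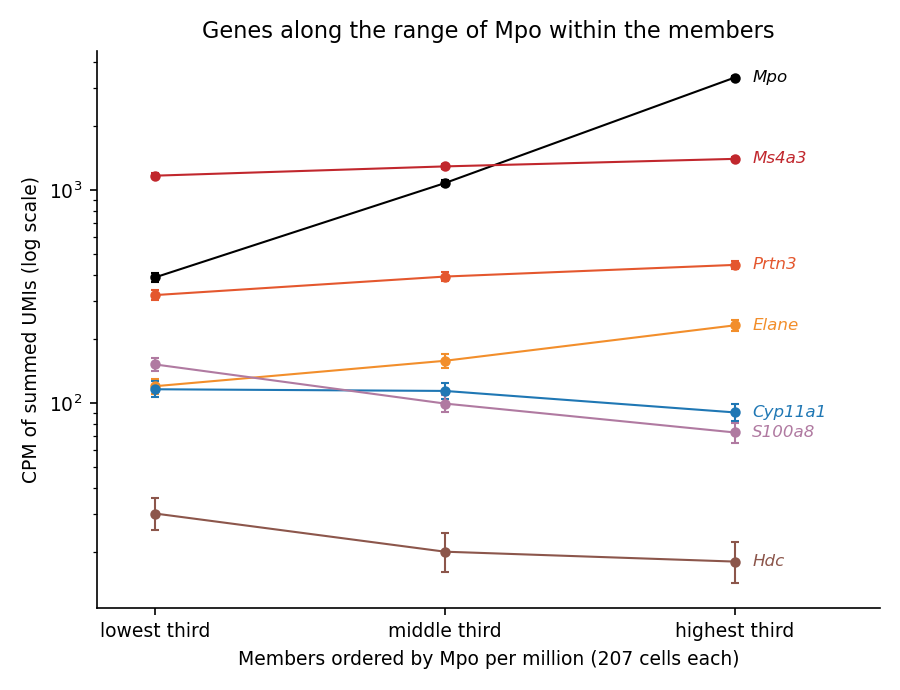
Level of 7 genes in 3 sets of 207 members ordered by the CPM of Mpo, as CPM of summed UMIs on a log scale with exact 95% Poisson intervals. Elane goes from 120 to 232 CPM and Prtn3 from 321 to 445 CPM along Mpo, while S100a8 goes from 152 to 72.8 CPM (111 to 71.8 CPM without the 9 maturing members) and Hdc from 30.3 to 18.0 CPM.

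The members did not form a cluster of their own. With Mpo and Cpa3 left out of the genes used, on average 25.4% of a member's 15 nearest cells were members, against a share of 12.1% among all kept vehicle cells. For cells with neither gene the figure was 16.4%, for cells with both 12.9% and for cells with Cpa3 alone 5.79%. Leaving out the S and G2/M genes as well gave 26.3% for members. Of 5 clusters, the 2 with most cycling cells held 345 and 175 members, 19.0% and 18.7% of their cells. Another cluster, of 1923 cells with 99.4% in G1, held 97 members, 5.04% of its cells.

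Almost no cell of this kind was found after retinoic acid. Of 6248 kept cells in that library 1 met the rule, and it held 53 of the library's 55 Mpo UMIs. That cell had 25132 UMIs, of which 107 came from Elane, 62 from Prtn3, 242 from Ctsg and 42 from Ms4a3, and none from Cpa3, Cd34 or Fgf3. Over the whole retinoic acid library Mpo was at 0.534 CPM and Cpa3 at 0.0777 CPM, so both genes that define the classes were nearly absent there. Elane, in contrast, was at 7673 CPM in that library against 170 CPM in the vehicle members, and Prtn3 at 2822 against 386 CPM. Cd34 was at 0.117 and Fgf3 at 0.699 CPM. With 1 library per treatment, these differences cannot be told apart from differences between mice, sorts or library preparations.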

How the data were processed

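The authors deposited raw UMI counts per gene and cell for 2 libraries, 1 of vehicle and 1 of retinoic acid cells, with 99679545 and 110443779 UMIs. Cell Ranger 4.0.0 wrote them per the file headers, and the submitters' processing notes name the builds mm10 and GRCm38.p4. The annotation and the cell calling were not given in the sources used here. Identifiers of 32158 of the 32285 genes matched GENCODE M21, which gave the coordinates.

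The members, the gene lists and the tests were chosen with earlier results of these data known. Counts were summed over the cells of a class and given as CPM, and ratios had 0.5 counts added. A gene was compared with at least 20 CPM in either set and called at 1.5-fold. With 1 library per group there was no test: intervals for sums (Poisson), ratios and shares (exact binomial, Clopper-Pearson) and differences of shares (Newcombe) are at 95% and cover counting error only. Named were the markers, the sorted antigens, Zbtb16, Rara and Ezh2, the 15 highest and 15 lowest ratios with at least 50 CPM in either set, and list genes with at least 20 CPM that were called or had most counts, besides the most abundant markers of other cell types. Phases were scored with scanpy 1.11.5 on cells of both libraries thinned to 5000 UMIs. Nearest cells and clusters used 2000 variable genes and 30 components. Scrublet called 1 of 5146 cells (0.0194%), so it was taken not to have worked, and no doublets were removed. The scripts were tested on simulated data. Alternatives changed the cut-offs, filters, weights, scaling (TMM, edgeR 4.0.16), phase mix and depth. Leaving out cells rich in maturation genes was added after the data were seen.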

Additional observations from a re-analysis of the deposited data

Results flagged for a closer look

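Among the 640 vehicle barcodes that the filters left out, 47 met the same cut-offs for Mpo and Cpa3, and 19 of these had under 0.1% of their UMIs in mitochondrial genes. They entered no comparison, and they show that Mpo-rich barcodes are also present outside the kept cells.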

How the results depend on the processing

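Of 449 values recomputed under an alternative, 307 stayed within their margin, 136 moved past it and 6 changed sign. The number of members lay between 579 and 638. Applying the rule to thinned cells gave 638 members, 493 of them shared. The difference in G1 share lay between -29.3 and -24.0 points, and the members' G1 share was 24.5% with vehicle cells scored alone. No paired analysis was possible because vehicle cells came from 1 library.

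The count of genes higher in members, 43, was 22 under TMM scaling, 13 with at least 100 CPM, 115 with at least 5 CPM, 3230 with no limit, 136 with equal weight for every cell, 186 with all cells thinned and 9 at matched phases. The count lower, 90, was 27 with at least 100 CPM, 245 with at least 5 CPM, 1634 with no limit, 143 with thinned cells and 42 at matched phases. TMM scaling shifted every log2 ratio by -0.07.

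List medians moved as follows. With equal weight for every cell and with thinned cells, that of the G2/M list was 0.67 each time, of the primary granule list without Mpo 0.40 each time, of the mast cell and basophil list without Cpa3 -1.20 each time, of the maturation list -0.86 and -0.92, and of the Polycomb list 0.36 and 0.45. The S list was at 0.56 with equal weight. At matched phases the G2/M list was at 0.010, the S list at 0.12, the Polycomb list at 0.080, the primary granule list at 0.21 and the maturation list at -0.28. Under TMM scaling the G2/M list was at 0.40 and the primary granule list at 0.25. With at least 10000 UMIs the values were 0.42 for G2/M, 0.29 for primary granules and -0.33 for maturation. With the rule on thinned cells the G2/M list was at 0.51. With both cut-offs at 100 CPM the maturation list was at -0.30, and with both at 400 CPM it was at -0.67 and the primary granule list at 0.30. Without the cells with highest doublet scores the primary granule list was at 0.32. Without the 150 maturing cells it was at 0.30, and the maturation list at -0.18.

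The stem and progenitor list, at 0.02, changed sign to -0.042 with equal weight, to -0.041 with TMM scaling, to -0.022 with thinned cells and to -0.084 without the maturing cells. Camp changed to 1.28 and Ngp to 0.094 without the maturing cells. Those cells were chosen by a list that holds both genes, so leaving them out takes away counts of both. For the results that moved, the cause was not tested. Of 319 values of single genes, 317 kept their sign. The members' weight in deep cells limits what can be read of cells near the lower depth limit.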
